A study of Mus musculus with 16 samples.

Results

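Trimethylation of histone H3 at lysine 4 (H3K4me3) was compared between hematopoietic stem cells (HSCs) of young and aged mice, as the places in the genome where the authors' peak caller listed the mark. On chromosomes 1 to 19 the lists hold 11279 peaks in young and 6686 peaks in aged HSCs, 17965 of the 122027 regions in the 6 lists of the series. Young HSCs came from 10-week-old and aged HSCs from 20-month-old mice, all female C57BL/6 animals. In the scheme of the study marrow was pooled across mice before sorting. HSCs were sorted from bone marrow by surface markers, as cells without lineage markers and IL-7R that carried Sca-1, c-Kit and CD150 and lacked CD34, CD48 and Flt3. Cross-linked chromatin was cut with micrococcal nuclease and sonication, and precipitated with an antibody to H3K4me3. Each age has 2 H3K4me3 libraries and 2 input libraries, but the authors pooled the libraries into 1 peak list per age, so no value has a replicate and no difference between the ages could be tested. Intervals given below are Wilson 95% intervals over peaks or genes, and cover counting error only.

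H3K4me3 is written by the SET1 and MLL (KMT2) methyltransferase complexes and marks promoters that are active or held ready for transcription. CpG-rich promoters carry it in part because a subunit of the SET1 complexes, the CXXC protein CFP1, binds unmethylated CpG. At developmental regulators the mark can lie next to H3K27me3, the mark of Polycomb repressive complex 2, which is known as bivalency. HSCs use both to keep stem cell genes on and the genes of other tissues off. A promoter absent from a list did not reach the caller's threshold, which does not show that the mark was absent.

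Sequence is shown first for promoters with the strongest peaks of each class, to let the eye compare promoters that were listed at both ages, in young HSCs alone and in aged HSCs alone. Each stretch is 240 bases of mm10 (GRCm38, RefSeq) taken from the listed peak outside annotated untranslated regions, is printed 5′ to 3′ on the strand of its gene, and has every CpG in capitals. Wls, the carrier that brings WNT proteins to the cell surface, was marked at both ages and is shown at chr3:159839942-159840181 (plus strand), which holds 106 bases of coding exon and 134 bases of intron. Cbll1, an E3 ubiquitin ligase, was also marked at both ages and is shown at chr12:31499617-31499856 (minus strand), ending at the base before its start site. The Cbll1 stretch was taken from the young peak, and the strongest aged peak (chr12:31499142-31499545) does not reach it.
Wls: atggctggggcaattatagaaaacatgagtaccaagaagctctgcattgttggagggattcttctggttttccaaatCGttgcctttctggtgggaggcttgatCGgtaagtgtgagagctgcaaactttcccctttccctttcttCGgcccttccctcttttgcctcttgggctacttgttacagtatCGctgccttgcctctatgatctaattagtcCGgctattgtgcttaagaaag
Cbll1: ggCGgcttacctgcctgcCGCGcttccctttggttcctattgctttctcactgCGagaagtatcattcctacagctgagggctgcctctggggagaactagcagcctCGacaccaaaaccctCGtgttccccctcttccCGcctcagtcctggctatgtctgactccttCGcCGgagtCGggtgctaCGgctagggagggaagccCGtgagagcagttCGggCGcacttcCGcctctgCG

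The strongest promoter peaks of young HSCs without an aged counterpart lay at Golph3, which encodes a Golgi phosphoprotein, and between Dcaf6 and Mpc2, a head-to-head pair. Dcaf6 encodes a CUL4-associated factor and Mpc2 a subunit of the mitochondrial pyruvate carrier. Golph3 is shown upstream of its start at chr15:12321016-12321255 (plus strand), and the shared promoter at chr1:165460680-165460919 on the minus strand, that of Dcaf6.
Golph3: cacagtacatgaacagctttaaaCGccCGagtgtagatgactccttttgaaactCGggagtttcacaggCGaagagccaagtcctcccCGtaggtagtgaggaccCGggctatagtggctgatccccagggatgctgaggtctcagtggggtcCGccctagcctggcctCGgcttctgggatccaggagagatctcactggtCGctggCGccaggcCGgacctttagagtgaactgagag
Dcaf6 and Mpc2: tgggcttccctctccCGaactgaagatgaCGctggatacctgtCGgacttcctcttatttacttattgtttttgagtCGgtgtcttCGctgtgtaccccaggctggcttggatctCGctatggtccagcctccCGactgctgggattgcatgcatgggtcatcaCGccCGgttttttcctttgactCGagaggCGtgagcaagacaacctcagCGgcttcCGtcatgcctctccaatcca

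The strongest promoter peaks found in aged HSCs alone lay at Ahdc1, which encodes an AT-hook protein, and at Cnot1, the scaffold of the CCR4-NOT deadenylase. Both stretches lie in an intron downstream of the start, at chr4:133011791-133012030 (plus strand) and chr8:95807093-95807332 (minus strand).
Ahdc1: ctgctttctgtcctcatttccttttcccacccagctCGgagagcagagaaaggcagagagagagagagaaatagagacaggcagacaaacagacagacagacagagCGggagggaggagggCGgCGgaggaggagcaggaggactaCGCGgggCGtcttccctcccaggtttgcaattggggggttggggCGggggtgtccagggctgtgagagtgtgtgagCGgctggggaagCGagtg
Cnot1: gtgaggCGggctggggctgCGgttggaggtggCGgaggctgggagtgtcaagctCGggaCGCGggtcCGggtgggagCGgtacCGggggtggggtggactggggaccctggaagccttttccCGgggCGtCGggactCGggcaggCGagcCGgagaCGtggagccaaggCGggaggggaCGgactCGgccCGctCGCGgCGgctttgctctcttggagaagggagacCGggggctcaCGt

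These 6 stretches hold between 5 CpG (Wls) and 25 CpG (Cnot1), and their CpG numbers do not sort them by class. The 240 bases held 16 CpG in Cbll1, 11 in Golph3, 13 in the Dcaf6 and Mpc2 promoter and 10 in Ahdc1. A comparison over all promoters is given further on.

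The first comparison asked how far the mark sat at the same places in both ages. Of the young peaks, 3572 overlapped an aged peak by at least 1 bp (31.7%, interval 30.8 to 32.5), while 3557 aged peaks had a young partner (53.2%, 52 to 54.4). Such peaks are called kept. The aged list was shorter (ratio of aged to young peaks 0.593) and covered 2.05 Mb against 3.87 Mb. In a pooled population, fewer marked cells and less mark per cell cannot be told apart. With 1 pooled list per age and unknown sequencing depth, neither can be told apart from differences in depth or in the precipitation.

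Peaks listed at both ages were somewhat stronger and wider than the others. Median fold enrichment over background was 4.23 (4.23 to 4.25) in kept and 4.04 (4.03 to 4.04) in unshared young peaks, and median width was 342 bp (335 to 350) and 279 bp (276 to 283). In the aged list the kept and unshared peaks had median widths of 293 bp (289 to 298) and 251 bp (248 to 255), while the median fold was 4.20 and 4.18. All of these peaks were low. The number of reads piled up at the summit, recovered from the fold and the p-value of each peak, had a median of 21 reads in kept and 20 reads in unshared young peaks, and of 19 reads in both classes of aged peaks. The lowest background at any peak was 3.70 reads in the young and 3.52 reads in the aged list.

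The strongest peaks were kept more often than the others in both lists. Each list was cut into 10 equal parts by −log10 q-value, q being the p-value adjusted for multiple testing. In the weakest part of the young list 28.3% (25.7 to 31) of the peaks were kept, and in the strongest part 46.9% (44.0 to 49.8). The lower 6 parts showed no steady course, with shares between 24.1% and 28.7%, and the share then went up from 32.8% in the seventh part. In the aged list the share was 45.3% (41.6 to 49.1) in the weakest and 63.9% (60.2 to 67.5) in the strongest part. Even in its strongest part, more than 50% of the young peaks had no overlapping aged peak. The intervals of the weakest and strongest parts did not overlap in either list.

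**Figure D1:**
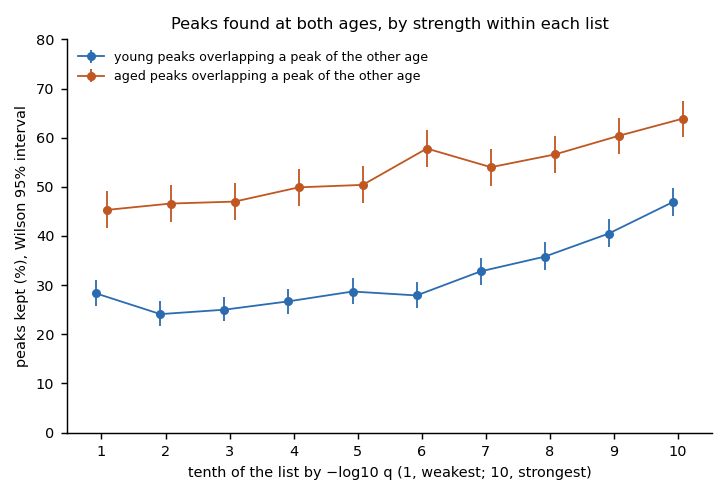
Share of peaks overlapping a peak of the other age (%, with Wilson 95% intervals), by 10 equal parts of each list ranked on −log10 q-value, for young peaks (blue) and aged peaks (orange). The young share is 28.3% in the weakest and 46.9% in the strongest part, and the aged share 45.3% and 63.9%.

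Unshared peaks often had a neighbour of the other age nearby. Of the 7707 young peaks without an aged partner, 28.1% lay less than 1 kb from an aged peak and 41.6% lay 50 kb or more from any. Of the 3129 unshared aged peaks, 42.4% lay less than 1 kb from a young peak and 26.5% lay 50 kb or more away. Promoters (1 kb on either side of any protein-coding start) held 85.3% (84.1 to 86.4) of kept peaks in the young list and 85% (83.7 to 86.1) in the aged list. They held 76.2% (75.2 to 77.1) and 77.0% (75.5 to 78.4) of unshared peaks. Bodies of coding genes away from promoters held 13.8% of unshared and 7.22% of kept young peaks. Chromosome by chromosome, the share of young peaks kept ranged from 27% on chromosome 19 to 34.5% on chromosome 1.

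Counted by gene, 20720 promoters were examined. The mark was listed at 7325 of them in young HSCs (35.4%) and at 5061 in aged HSCs (24.4%). Both lists marked 3815 genes (18.4% of all genes), which is 52.1% of the young-marked and 75.4% of the aged-marked genes. Young HSCs alone marked 3510 genes (16.9%) and aged HSCs alone 1246 genes (6.01%). The remaining 12149 genes had no peak at either age. Most promoters marked in aged HSCs were thus also marked in young HSCs, and 24.6% were not. The last 2 classes depend on list length: with the young list shortened to its 6686 strongest peaks, 2246 genes were marked in young HSCs only and 2217 in aged HSCs only, and 55.9% of the 5090 young-marked genes were kept. With only peaks of −log10 q-value of at least 4 in both lists, called the stricter lists below, 2148 of 5386 young-marked genes were kept (39.9%). These figures for all genes are the background against which the gene groups below are to be read.

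At kept genes the young and the aged peak overlapped in 3069 of 3815 cases (80.4%, 79.2 to 81.7), and at the others 2 different places of the promoter region, or different start sites, were marked. Genes with more young peaks at their promoters were kept more often: 45.9% (44.5 to 47.3) of genes with 1 young peak, 62.9% (60.7 to 65.0) with 2, 74.0% (69.3 to 78.3) with 3 and 81.4% (69.6 to 89.3) with 4 or more. Kept genes also had the stronger young peaks. In 5 equal parts by the −log10 q-value of the strongest young peak, the share of kept genes was 44.0% (41.4 to 46.5) in the lowest and 63.7% (61.2 to 66.1) in the highest part. Only 5.75% of young-only genes had an aged peak within 5 kb of a start site. A single peak may serve neighbouring genes: 23.2% of young-marked and 24.2% of aged-marked genes shared a promoter peak with another gene.

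Among all genes, the kept promoters with the highest −log10 q-values at both ages were those of Wls, Cbll1, Frmd4a, Cep55, Cklf and Zfp27. Wls had 6.38-fold enrichment in young and 5.98-fold in aged HSCs, with 29 reads at the summit in both. Cep55, which acts in the last step of cell division, had 7.28-fold enrichment (38 reads) in young and 5.57-fold (31 reads) in aged HSCs. Frmd4a, which encodes a FERM-domain scaffold protein, had 5.95-fold in young and 6.63-fold in aged HSCs, and carried H3K27me3 at its promoters at both ages. The peaks of Frmd4a lay 407 kb into the gene from its representative start, at another of its start sites.

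The genes with the strongest peaks in young HSCs alone were Golph3, Dcaf6, Mpc2, Cop1, Ehmt1 and Gsk3a. The Golph3 peak (chr15:12320782-12321314) had 7.62-fold enrichment with 35 reads at the summit. Cop1, an E3 ubiquitin ligase, had 7.44-fold enrichment. Ehmt1, a methyltransferase for lysine 9 of histone H3, and Gsk3a, a kinase of insulin and WNT signalling, both had 7.06-fold enrichment with 34 reads. Rank by −log10 q-value chose these genes, so that their strength is a description and not a result. In aged HSCs alone, the strongest were Ahdc1 (chr4:133011555-133012051, 7.07-fold, 31 reads), Cnot1 (6.85-fold), the head-to-head pair Ptrh2 and Vmp1 (1 peak, 6.63-fold), Yeats4 (6.06-fold) and Ccdc127 (6.41-fold), whose peak also served its neighbour Sdha. Vmp1 is a membrane protein needed to form autophagosomes and Yeats4 a reader of acylated histones. Golph3 and Ahdc1 carried H3K27me3 in young but not in aged HSCs.

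The sorted cells carried the mark at stem cell genes and had few peaks at genes of mature blood cells. Of 10 HSC marker genes, 7 were marked in young and 8 in aged HSCs, and all 7 young-marked genes were kept, among them Tek, Mecom, Procr and Meis1. Kit was listed in aged HSCs only (4.42-fold), and Slamf1 and Ly6a, whose proteins were used for the sort, were listed at neither age. None of 7 T cell markers and none of 4 megakaryocyte markers was listed at either age. Of 10 myeloid markers only Csf3r, the receptor of granulocyte colony-stimulating factor, was listed, at both ages, and of 7 B cell markers Ebf1 at both ages and Cd79b in young HSCs. Of 5 erythroid markers 2 were listed in young HSCs only (40.0%), among them Epor (4.25-fold), and none in aged HSCs. Of 5 endothelial and stromal markers, Cxcl12 was listed at both ages and Kdr in aged HSCs only. What these few peaks contribute to the differences between the lists was not tested.

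The transcription factors that define HSCs were kept in larger part than genes at large. Of 24 such genes, 18 were marked in young and 18 in aged HSCs, and 15 were marked at both ages (83.3% of the young-marked, interval 60.8 to 94.2, beside 52.1% over all genes). The kept members, some of them named after their values were seen, included Fli1, Ikzf1, Myb, Meis1, Runx1, Ldb1, Mecom, Tal1, Etv6, Erg and Nfe2. In the comparison with the shortened young list 13 of 15 were kept, beside 55.9% over all genes. The young peaks of these genes were comparatively strong and numerous, with a median −log10 q-value of 5.73 against 5.11 over all young-marked genes and several young peaks at 61.1% of the genes against 32.4%. They also have more start sites, 3.00 per gene on average against 1.91. The part that these features play in the share was not tested.

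Erg, an ETS factor needed to maintain HSCs, had 5.74-fold enrichment in young and 4.86-fold in aged HSCs. Its young peak was 1979 bp wide, the widest of the list, and its strongest aged peak 478 bp. Tal1, the basic helix-loop-helix factor that specifies HSCs, had 4.84-fold in young and 4.35-fold in aged HSCs, with widths of 1572 bp and 355 bp. Runx1, the core-binding factor subunit that contacts DNA, had 4.64-fold and 4.86-fold and Etv6, an ETS repressor, 5.42-fold and 4.86-fold. The Etv6 peaks were 1278 bp and 219 bp wide. Erg, Tal1 and Etv6 thus differed between the lists more in the width of the strongest peak than in fold, and Runx1 (274 bp and 332 bp) did not. Other peaks at the same promoters are not counted in these widths, so that they need not give the whole marked length.

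Mecom, a zinc finger factor that keeps HSCs quiescent, had 3 peaks at each age. Meis1, a homeobox partner of HOX proteins, had 4.86-fold enrichment over 1061 bp in young and 4.20-fold over 200 bp in aged HSCs. The members found in young HSCs only were Lmo2 (4.68-fold), Gata2 (4.44-fold) and Lyl1 (3.52-fold), of which Lmo2 and Lyl1 belong to the same complex as Tal1. Members found in aged HSCs only were Hhex (5.08-fold), Cbfb (3.98-fold) and Hoxa9 (3.76-fold), and Spi1, Gfi1 and Gfi1b were listed at neither age.

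Receptors and adhesion molecules of HSCs, a list that shares genes with the markers above, also had more kept members than not. Of 20 genes, 13 were marked in young and 11 in aged HSCs, and 10 were kept (76.9%, 49.7 to 91.8, an interval that contains 52.1%). Cxcr4, the receptor that retains HSCs in the marrow, had 4.48-fold enrichment in young and 5.31-fold in aged HSCs, and Tek, the angiopoietin receptor, 4.64-fold and 4.29-fold. Cd47, Cd34 and Cd27 were marked in young HSCs only (6.38-fold, 4.37-fold and 3.55-fold). Cd34 is low on the surface of the sorted cells by the choice of the gate.

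Receptors for cytokines had fewer kept members than members marked in young HSCs only. Of 24 hematopoietic cytokine receptors, 12 were marked in young and 7 in aged HSCs, with 5 kept (41.7%, 19.3 to 68.0). In the stricter lists 1 of 8 was kept (12.5%). Lifr, Csf3r and Ifnar2 were among those kept. Il6st, the shared signalling chain of the interleukin 6 family, and Tnfrsf1b, a receptor of tumor necrosis factor, were marked in young HSCs only (4.89-fold each), and Ifngr1 and Kit in aged HSCs only (4.42-fold each). The interval of this share contains that over all genes.

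Lineage factors were a small group. Of 13 myeloid factors, Id2, Cebpa, Egr1 and Egr2 were kept, Irf8 was marked in young HSCs only (5.31-fold) and Klf4 in aged HSCs only (3.76-fold). Of the 5 young-marked myeloid factors, 4 carried H3K27me3 at a promoter in young HSCs, beside 8.64% of all young-marked genes. Cebpa, which drives the granulocyte and monocyte lineage, had 4.03-fold enrichment in young and 5.75-fold in aged HSCs, and Id2, an inhibitor of helix-loop-helix factors, 2.69-fold and 5.75-fold. Of 19 lymphoid factors, 10 were marked in young HSCs and 7 of them kept, among them Foxo1, Bcl11a, Ikzf1 and Ikzf2. Tcf12, Sox4 and Lef1 were marked in young HSCs only, and no lymphoid factor was marked in aged HSCs only.

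Regulators of stress and cytokine responses were counted by family, and differences between families were not tested. Of 19 genes of the NF-kappaB pathway, 14 were marked in young HSCs and 11 of them kept (78.6%, 52.4 to 92.4), with none marked in aged HSCs only. Kept members included the inhibitors Nfkbib and Nfkbie, the feedback inhibitor Tnfaip3 and the subunit Rel. Ikbke, Rela and Traf2 were marked in young HSCs only (4.39-fold, 4.03-fold and 3.73-fold). Nfkbie had 4.23-fold enrichment in young and 5.53-fold in aged HSCs.

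Of 9 interferon regulatory factors, 8 were marked in young HSCs but only Irf2, Irf3 and Irf9 at both ages (37.5% of the young-marked, 13.7 to 69.4). Among those listed in young HSCs alone were Irf8 (5.31-fold), Irf4 (5.04-fold) and Irf7 (3.60-fold). Irf3, the sensor-activated inducer of type I interferon, had 4.04-fold enrichment in young and 6.41-fold in aged HSCs. The interval contained the share over all genes. Interleukins and their receptors (6 of 15, 40.0%) and chemokines and their receptors (3 of 7, 42.9%) had similar shares, also with intervals that contain 52.1%. In the stricter lists 4 of 9 (44.4%) and 2 of 5 (40.0%) of these were kept, beside 39.9% over all genes.

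Of 7 STAT genes, which carry cytokine signals to the nucleus, 4 were kept, among them Stat5b and Stat6, and Stat3 and Stat5a were marked in young HSCs only (3.63-fold and 4.11-fold). Their regulators were kept in 5 of 13 cases (38.5%, 17.7 to 64.5), and in 4 of 9 in the stricter lists (44.4%, beside 39.9% over all genes). Socs5, Socs1 and Socs2, which dampen JAK and STAT signalling, were marked in young HSCs only (6.59-fold, 5.31-fold and 4.46-fold), while Socs4 and Cish, of the same family, were kept. Of 20 AP-1 and ATF genes, 13 were marked in young HSCs and 9 kept (69.2%, 42.4 to 87.3), among them Creb1, Crem, Atf2 and Atf7. Fosb was marked in young HSCs only (5.31-fold), and Batf and Batf3 in aged HSCs only (4.38-fold and 3.76-fold).

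The autophagy genes had, with the lists as deposited, the highest share of kept promoters among the groups with 10 or more young-marked genes, while HSC core transcription factors ranked above them in the stricter lists (12 of 16 and 11 of 16 kept) and with promoters of 2 kb (18 of 19 and 17 of 19). Of 29 genes, 19 were marked in young and 19 in aged HSCs, and 17 were marked at both ages (89.5% of the young-marked, 68.6 to 97.1). Of those in the shortened young list, 14 of 15 were kept. The kept genes, of which some are named here after their values were seen, span the pathway, from the initiating kinases Ulk1 and Ulk2 and their partner Atg13, through Becn1 and the lipid transporters Atg2a and Atg2b, to the ubiquitin-like conjugation system (Atg3, Atg5, Atg12) and the cargo receptor Sqstm1. Atg3, the conjugating enzyme, had 3.92-fold enrichment in young and 5.50-fold in aged HSCs, and Gabarap, which it couples to lipid, 3.59-fold and 5.22-fold. The solute carrier gene Slc35a5 had the same fold values and peak numbers as Atg3 at both ages, so that these peaks may be shared. Atg14 (4.44-fold) and Atg4d (3.30-fold) were marked in young HSCs only, and Atg10 (4.64-fold) and Atg16l1 (4.20-fold) in aged HSCs only. The median −log10 q-value of the young peaks was 5.52, and 31.6% of the genes had several young peaks, near the 32.4% over all young-marked genes.

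Other genes of protein turnover had lower shares of kept promoters. Of 47 proteasome subunit genes 35 were marked in young and 23 in aged HSCs, with 19 kept (54.3%, 38.2 to 69.5). Of 34 ubiquitin-conjugating enzymes 22 were marked in young and 10 in aged HSCs, with 8 kept (36.4%, 19.7 to 57), and 1 of 14 in the stricter lists (7.14%). Only 1 of the 22 young-marked enzymes had several young peaks, beside 32.4% over all genes. Ube2k, Ube2r2, Ube2w and Ube2b were marked in young HSCs only (5.04-fold, 4.96-fold, 4.84-fold and 4.18-fold), and Ube2j2, Ube2g2, Ube2m and Ube2l6 at both ages. Of 50 ubiquitin-specific proteases, 28 were marked in young HSCs and 14 kept (6 of 23 in the stricter lists), with none marked in aged HSCs only.

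Genes of basic gene expression were marked in most members at the young age. In the splicing factors 60 of 74 genes (81.1%) were marked in young and 46 (62.2%) in aged HSCs, and 40 were kept (66.7%, 54.1 to 77.3). Snrpc and Snrpb, proteins of the small nuclear ribonucleoproteins, had 5.44-fold and 5.04-fold enrichment in young and 5.75-fold each in aged HSCs. The RNA polymerase subunits were as widely marked in young HSCs (22 of 28, 78.6%) but not in aged HSCs (10 of 28, 35.7%), with 9 kept (40.9%, 23.3 to 61.3). Polr1a and Polr1c of RNA polymerase I (5.65-fold and 5.74-fold), Polr2l (5.31-fold) and Polr3d (4.56-fold) were marked in young HSCs only. In the shortened young list 7 of 14 were kept, close to the share over all genes. In the stricter lists 7 of 14 were kept as well (50.0%), above the 39.9% over all genes.

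Nuclear pore genes were marked in 15 of 20 cases in young and in 6 in aged HSCs. All 6 were kept (40.0% of the young-marked, 19.8 to 64.3), among them Nup133, Nup155, Nup153 and Nup98. Nup35, Nup210, Nup50 and Nup188 were marked in young HSCs only, with Nup35 at 5.74-fold. Mediator subunits, which link factors to RNA polymerase II, were kept in 13 of 21 cases (61.9%, 40.9 to 79.2). DEAD-box and DEAH-box RNA helicases were kept in 24 of 37 cases (64.9%, 48.8 to 78.2). All 3 intervals contain 52.1%. In the stricter lists 2 of 10 nuclear pore genes (20.0%), 7 of 18 Mediator genes (38.9%) and 10 of 28 helicases (35.7%) were kept, all below the 39.9% over all genes.

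The translation machinery stayed near the background. Cytosolic ribosomal protein genes were marked in 51 of 75 cases in young and 35 in aged HSCs, with 26 kept (51.0%, 37.7 to 64.1). Mitochondrial ribosomal protein genes were kept in 23 of 48 cases (47.9%, 34.5 to 61.7, and 12 of 39 in the stricter lists), initiation factors in 20 of 35 (57.1%, 40.9 to 72.0) and aminoacyl-tRNA synthetases in 14 of 29 (48.3%, 31.4 to 65.6). Rps3, of the small ribosomal subunit, had 4.44-fold enrichment in young and 6.41-fold in aged HSCs. Mrps22 and Mrpl32 of the mitochondrial ribosome were marked in young HSCs only at 6.80-fold and 6.45-fold. Eif4e, the factor that binds the messenger cap, was marked in aged HSCs only (5.08-fold).

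Metabolic genes lay on both sides of the share over all genes, and the intervals given here contain it. Respiratory chain subunits were marked in 57 of 80 cases in young and 40 in aged HSCs, with 33 kept (57.9%, 45 to 69.8). Of 17 enzymes of the tricarboxylic acid cycle, 9 were marked at each age and 7 at both (77.8%, 45.3 to 93.7). Ogdh, a subunit of the 2-oxoglutarate dehydrogenase complex, had 5.44-fold and 5.97-fold enrichment. Sdha, the catalytic subunit of succinate dehydrogenase, was marked in aged HSCs only (6.41-fold, 1 peak shared with Ccdc127), and Sdhb, its iron-sulfur partner, in young HSCs only (4.68-fold). Gapdh of glycolysis was marked in young HSCs only (4.89-fold). Cytochrome P450 enzymes were kept in 4 of 10 cases (40.0%, 16.8 to 68.7) and peroxisome biogenesis factors in 6 of 12 (50.0%, 25.4 to 74.6), both below the share over all genes also under all 4 alternatives. Of the enzymes of cholesterol synthesis 5 of 9 were kept (55.6%, 26.7 to 81.1), but 1 of 7 in the stricter lists (14.3%). Mvd, of cholesterol synthesis, was kept with 8.08-fold enrichment in young and 3.91-fold in aged HSCs. Gpx1, a glutathione peroxidase, was marked in aged HSCs only (6.41-fold), and Sod1, a superoxide dismutase, in young HSCs only (4.44-fold).

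Cell cycle genes were marked in most members in young HSCs. DNA replication factors were marked in 27 of 45 cases in young and 15 in aged HSCs, with 12 kept (44.4%, 27.6 to 62.7). In the stricter lists 9 of 22 were kept (40.9%), beside 39.9% over all genes. Orc3, Pold3, Rfc3 and Cdc45 were marked in young HSCs only, with Orc3 of the origin recognition complex at 6.05-fold, and Mcm7 of the replicative helicase was kept (5.24-fold and 5.75-fold). Cyclins and their kinases were kept in 18 of 32 cases (56.2%, 39.3 to 71.8, and 8 of 23 in the stricter lists) and genes of the anaphase-promoting complex and spindle checkpoint in 12 of 21 (57.1%, 36.5 to 75.5). Of 7 inhibitors of cyclin-dependent kinases, Cdkn1b and Cdkn2c were kept, Cdkn1a (3.83-fold) and Cdkn2d (2.80-fold) were marked in young HSCs only, and Cdkn1c, Cdkn2a and Cdkn2b were listed at neither age. Of 62 DNA damage response and repair genes, 45 were marked in young HSCs and 25 kept (55.6%, 41.2 to 69.1). Bard1 and Rad51b of homologous recombination were kept, and Brca2 and Xrcc4 were marked in aged HSCs only (4.86-fold and 4.64-fold).

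Replication-dependent histone genes stood low at both ages. Of 66 genes, 12 were marked in young and 4 in aged HSCs, with 3 kept (25.0%, 8.89 to 53.2): Hist1h2be, Hist1h1b and Hist2h4. These genes lie close together and share sequence, so that reads can align to several copies and the counts are uncertain.

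**Figure D2:**
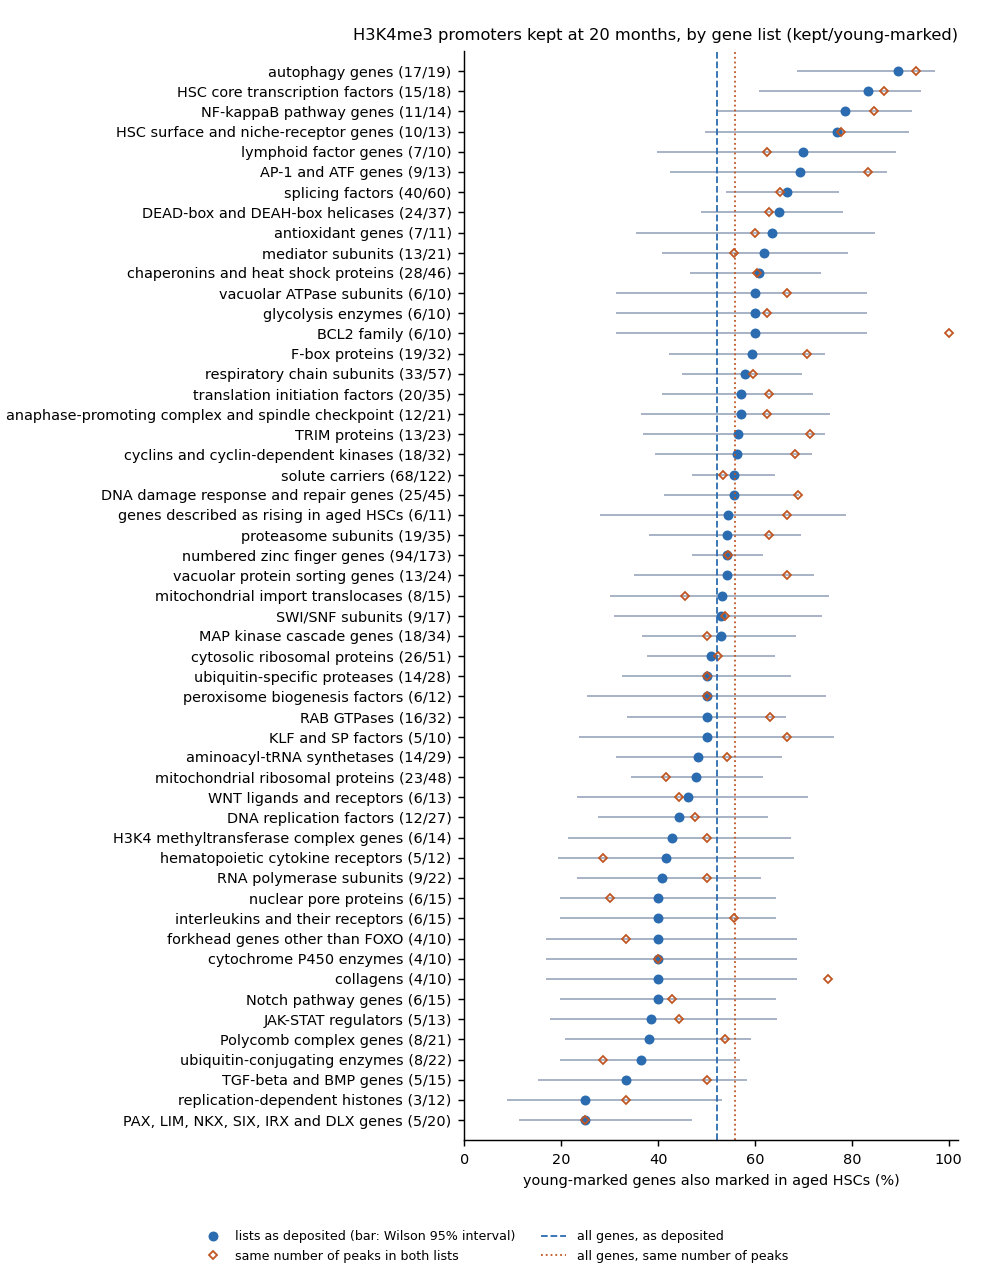
Share of young-marked genes that were also marked in aged HSCs (%, blue points with Wilson 95% intervals) in each gene list with at least 10 young-marked genes, and the same with the young list shortened to the number of aged peaks (orange diamonds), beside the shares over all genes (lines at 52.1% and 55.9%). Autophagy genes (17 of 19) and HSC core transcription factors (15 of 18) lie at the top and the homeobox families PAX to DLX (5 of 20) and replication-dependent histones (3 of 12) at the bottom.

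Genes of the complexes that methylate H3K4, both enzymes and other subunits, were themselves marked in most members in young HSCs. Of 16 genes of the H3K4 methyltransferase complexes, 14 were marked in young and 6 in aged HSCs, with 6 kept (42.9%, 21.4 to 67.4) and none marked in aged HSCs only. The kept genes were Kmt2a and Kmt2b, which encode methyltransferases of the MLL group, the shared subunits Wdr5 and Ash2l, and Paxip1 and Ncoa6 of the KMT2C and KMT2D complexes. Setd1a (4.68-fold), Men1 (4.20-fold), Dpy30 (4.25-fold) and Rbbp5 (4.17-fold) were marked in young HSCs only. So were Wdr82, Cxxc1, Kmt2c and Setd1b. In the shortened young list 5 of 10 were kept, and in the stricter lists 3 of 11 (27.3%). The interval contains the share over all genes. Among 4 genes of demethylases of H3K4, not all of which act on the trimethylated form, Kdm5a and Kdm1b were marked at both ages and Kdm1a and Kdm5b at neither.

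Polycomb genes included members marked at one age only on both sides. Of 32 genes, 21 were marked in young and 16 in aged HSCs, but only 8 at both (38.1% of the young-marked, 20.8 to 59.1), and the other 8 aged-marked genes had no young peak. The interval contains 52.1%. Of the aged-marked genes, 50.0% had no young peak, beside 24.6% over all genes, but this contrast depends on list length: with the shortened young list these were 9 of 16, beside 2217 of 5061 over all genes. In that list 7 of 13 young-marked genes were kept (53.8%), near the 55.9% over all genes. In the stricter lists 6 of 14 were kept (42.9%), beside 39.9% over all genes. The members, named here after their values were seen, fall on both sides within each complex. Kept genes were Mtf2 and Jarid2, accessory subunits of Polycomb repressive complex 2 (PRC2), and Rnf2, Phc1, Phc2, Pcgf3, Cbx6 and Cbx8 of PRC1. The PRC2 catalytic subunit Ezh2 and the core subunit Suz12 were marked in young HSCs only, and their partner Eed in aged HSCs only (6.41-fold). Rybp, a subunit of variant PRC1, and its homolog Yaf2 were marked in young HSCs only (5.65-fold and 4.25-fold). Bmi1, Pcgf5, Phc3 and the histone chaperone Rbbp4 were among the others marked in aged HSCs only.

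Among 13 genes of DNA methylation, Dnmt1, Dnmt3a, Tet2, Mbd1 and Idh1 were kept and Dnmt3b, Tet3 and Uhrf1 were marked in young HSCs only. Dnmt3a, a de novo methyltransferase mutated in clonal hematopoiesis, had 4.23-fold enrichment in young and 5.08-fold in aged HSCs, and Tet2, which oxidizes methylcytosine, 2.80-fold and 4.35-fold. Sirtuins and histone deacetylases were kept in 5 of 9 cases. Sirt1, the deacetylase most studied in aging, was marked in young HSCs only (6.38-fold), whereas Sirt2 (5.04-fold and 5.22-fold, peaks shared with its neighbour Nfkbib) and Sirt3 (4.46-fold and 4.60-fold) were kept.

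Developmental regulators differed by family in the shares marked and kept. Over all genes, 35.4% were marked in young and 24.4% in aged HSCs. Of 56 homeobox genes of the PAX, LIM, NKX, IRX, DLX and related families, 20 were marked in young (35.7%) and 7 in aged HSCs (12.5%). Of the young-marked members 5 were kept (25.0%, 11.2 to 46.9, beside 52.1% over all genes). Pax2 (5.10-fold), Irx3 (4.89-fold), Lhx6 (4.68-fold) and Msx1 (4.46-fold) were marked in young HSCs only, and Nkx2-3, Msx3, Dlx4 and Six5 were kept. The young-marked members had weak peaks, with a median −log10 q-value of 3.78 against 5.11, and 18 of the 20 carried H3K27me3 at a promoter in young HSCs, beside 633 of 7325 young-marked genes (8.64%). With the shortened young list 2 of 8 were kept, and in the stricter lists 1 of 9 (11.1%). Neither the weaker peaks nor the H3K27me3 were tested for their part in this share.

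HOX genes, which pattern the body axis and of which a few act in HSCs, were marked in 9 of 39 cases in young and 5 in aged HSCs. Hoxb6 (4.03-fold and 4.42-fold) and Hoxa3 (3.31-fold and 5.08-fold) were kept (22.2% of the young-marked, 6.32 to 54.7, an interval that contains 52.1%). With promoters of 2 kb 7 of 13 were kept (53.8%), near the 53.7% over all genes. Hoxa10, Hoxc9 and Hoxb2 were among those found in young HSCs only, and Hoxb9, Hoxa9 and Hoxb1 were marked in aged HSCs only. Of the T-box genes, the 4 of 15 that were marked in young HSCs, Tbx1, Eomes, Tbr1 and Tbx3, were all kept. All 4 carried H3K27me3 at a promoter in young HSCs, as did 5 of the 9 young-marked HOX genes. Of 5 GATA genes, Gata3 and Gata6 were kept and Gata2 was marked in young HSCs only.

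Genes of developmental signalling had intervals that contain the share over all genes in each of the 3 families counted. Notch pathway genes were marked in 15 of 23 cases in young and 7 in aged HSCs, with 6 kept (40.0%, 19.8 to 64.3). The receptor Notch2, the nuclear effector Rbpj, its coactivator Maml1 and the target Hes6 were marked in young HSCs only (4.68-fold, 4.11-fold, 4.11-fold and 5.04-fold), and the ligand Jag1 and the target Hey2 were kept. TGF-beta and BMP genes were kept in 5 of 15 cases (33.3%, 15.2 to 58.3, and 4 of 8 with the shortened young list), with another 5 marked in aged HSCs only. The inhibitory Smad6 and Smad7 and the BMP mediator Smad5 were kept. The receptors Tgfbr1, Bmpr2 and Acvr1c and the BMP mediator Smad1 were marked in young HSCs only, and Smad2, Acvr1, Acvr1b and Acvrl1 in aged HSCs only. WNT ligands and receptors were kept in 6 of 13 cases (46.2%, 23.2 to 70.9), and 3 of 10 in the stricter lists.

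Families of differentiated tissues were marked less often than all genes (35.4% in young and 24.4% in aged HSCs), to differing degrees. Collagens were marked in 23.8% and 11.9% of 42 cases, and glutamate and GABA receptors in 11.4% and 9.09% of 44. Other families had almost no peaks. Defensin, olfactory and vomeronasal receptor promoters had a median of 1 CpG, and 2.70% of all genes with 0 or 1 CpG were marked in young HSCs. Keratins (53 genes) and defensins (64 genes) had no peak, 1 of 1086 olfactory receptor genes and 1 of 326 vomeronasal receptor genes had a peak at both ages, and clustered protocadherins had 3 of 57 in young HSCs only. Potassium channels were marked in 9 of 92 cases in young and 10 in aged HSCs, with 5 at both ages. Kcnj10, an inward rectifier of glia, was marked in aged HSCs only (5.75-fold).

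**Figure D3:**
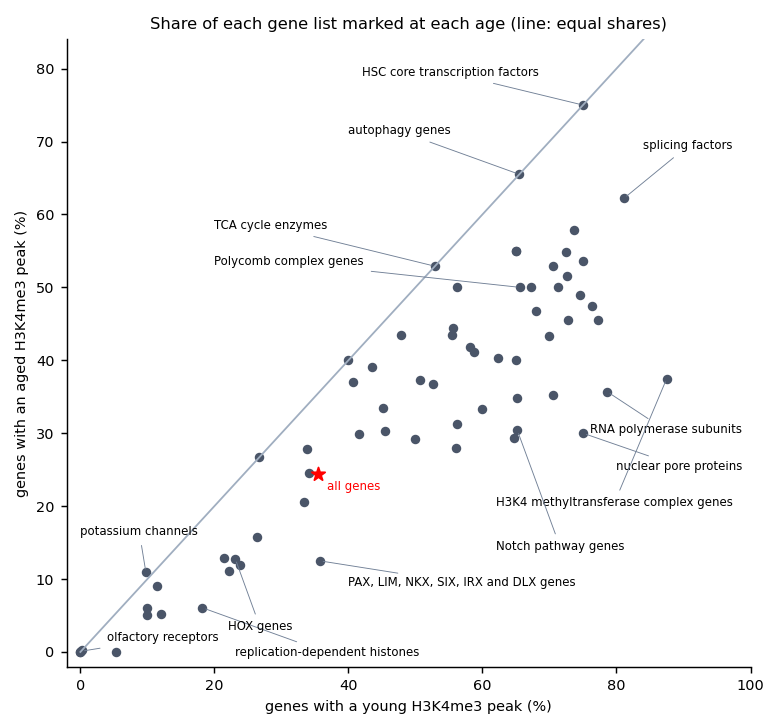
Share of genes with an H3K4me3 peak in young (x axis, %) and aged HSCs (y axis, %) for each gene list with at least 15 genes, with the red star for all genes (35.4% and 24.4%) and the grey line for equal shares. Most lists lie under the line, while HSC core transcription factors (75% at each age), autophagy genes (65.5%), tricarboxylic acid cycle enzymes (52.9%), KLF and SP factors (40.0%) and T-box genes (26.7%) lie on it.

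Genes that the study lists as differing in RNA between aged and young HSCs were counted in the same way, by name only. They were chosen by the study on HSCs of mice of these ages and are no independent evidence of a direction. Of 267 genes listed as higher in aged HSCs, 112 were marked in young and 83 in aged HSCs, with 62 kept (55.4%, 46.1 to 64.2). Of 115 genes listed as lower, 59 were marked in young and 37 in aged HSCs, with 25 kept (42.4%, 30.6 to 55.1). Both intervals contained the 52.1% over all genes, and they overlapped each other. With the shortened young list 43 of 71 and 18 of 44 were kept. Of the first group Apobec3, an antiviral deaminase, and Akap9, a scaffold at the centrosome, were kept, the histone variant gene H2afz and the chaperone gene Hsp90aa1 were marked in young HSCs only (6.16-fold and 5.95-fold), and the prostaglandin receptor gene Ptger3 in aged HSCs only (4.64-fold). Of the second group Socs5 and Plxdc2 were marked in young HSCs only (6.59-fold and 6.15-fold) and Igf2bp2, an RNA-binding protein, and Itgb5, an integrin, in aged HSCs only (5.08-fold each).

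Within the promoter, the median distance of the summit from the start was similar at both ages, although the young and aged peaks did not overlap at every kept gene. The summit of the strongest peak lay within 1 kb of the representative start of the gene (1 start chosen per gene) in 3380 kept genes for the young peak and 3413 for the aged peak, at a median of 194 bp and 197 bp into the gene. It was 220 bp in young-only and 200 bp in aged-only genes. The summit was on the gene side of the start in 66.1% and 67.1% of kept genes, 70.5% of young-only and 70.0% of aged-only genes. Between the peaks of the distribution upstream and downstream, few summits lay in the 100 bp before the start (1.66% and 1.64% of kept, 1.81% of young-only and 2.95% of aged-only genes).

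**Figure D4:**
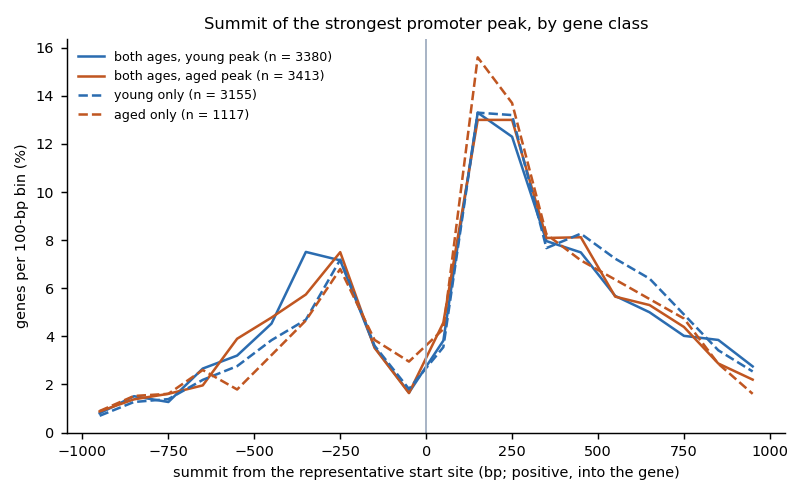
Position of the summit of the strongest promoter peak relative to the representative start site (bp, positive into the gene), as a percentage of genes in each 100-bp bin, for genes marked at both ages (solid, blue for the young and orange for the aged peak), in young HSCs only (dashed blue) and in aged HSCs only (dashed orange). In all 4 curves summits are most frequent from 100 to 300 bp into the gene and dip in the 100 bp before the start.

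The sequence of the promoters, in 300 bases from 250 before to 50 after the representative start, separated marked from unmarked genes and hardly separated the classes of marked genes. The median number of CpG was 21 in kept, 21 in young-only and 21 in aged-only promoters, and 5 in promoters listed at neither age. The GC content was 61.0%, 61.0%, 61.3% and 51.7%. At least 10 CpG were found in 87.1% (86.0 to 88.1) of kept, 85.5% (84.3 to 86.6) of young-only, 85.6% (83.6 to 87.5) of aged-only and 36.6% (35.7 to 37.4) of unmarked promoters. 

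**Figure D5:**
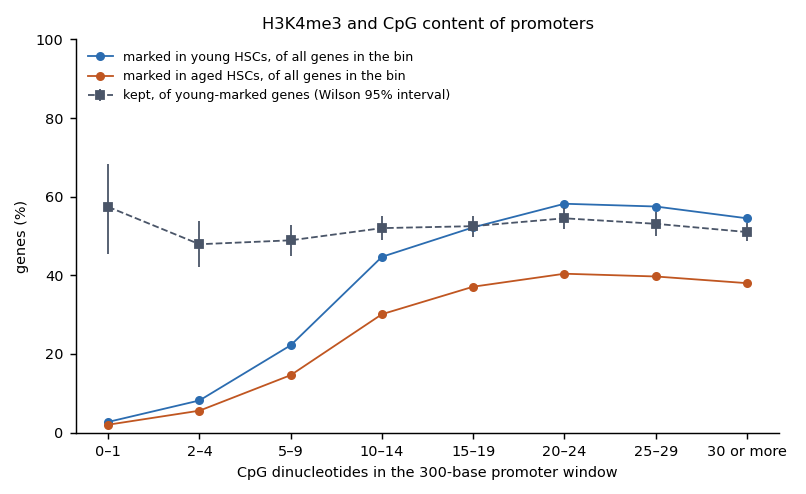
Share of genes marked in young (blue) and aged HSCs (orange) among all genes, and share of young-marked genes kept (grey squares with Wilson 95% intervals), by the number of CpG in the 300-base promoter window. The young share goes from 2.70% with 0 or 1 CpG to 58.2% with 20 to 24 CpG, while the kept share stays between 47.9% and 57.4%.

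Among young-marked genes, CpG content and the share kept had no evident relation: 57.4% (45.5 to 68.4) were kept with 0 or 1 CpG, 47.9% (42.1 to 53.7) with 2 to 4, 54.5% (51.8 to 57.2) with 20 to 24 and 51.0% (48.7 to 53.4) with 30 or more. Of 14 short motifs searched on both strands, the ETS core CCGGAAG was in 21% (19.8 to 22.3) of kept, 18.3% (17.1 to 19.7) of young-only, 17.3% (15.3 to 19.5) of aged-only and 5.79% of unmarked promoters, and in 11.4% of all. The cyclic AMP response element TGACGTCA was in 4.25% (3.65 to 4.93), 3.39% (2.84 to 4.04), 3.37% (2.50 to 4.52) and 1.57%, with 2.48% of all promoters. Its part TGACGT, which counts those matches too, was in 14.1%, 12.4%, 11.6% and 5.83%, with 8.80% of all. The YY1 motif AAGATGGCG was in 3.77% (3.21 to 4.43), 3.25% (2.71 to 3.89), 2.33% (1.63 to 3.32) and 0.823%, with 1.87% of all. The E-box CACGTG went the other way among the marked classes. It was in 9.49% (8.60 to 10.5) of kept, 9.97% of young-only, 11.9% (10.2 to 13.8) of aged-only and 6.18% of unmarked promoters, with 7.78% of all. These are matches of letters in a fixed window. For ETS the interval of kept promoters did not overlap those of young-only and aged-only promoters, and for the other motifs of this paragraph the intervals of the marked classes overlapped where they are given. Among promoters with at least 10 CpG, the ETS shares were 23.6%, 20.6%, 19.3% and 12%.

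The GC box GGGCGG was in 65.0%, 67.0% and 66.0% of kept, young-only and aged-only promoters and in 32.3% of unmarked promoters (46.2% of all), and the NRF1 sequence GCGCATGCG in 4.12%, 3.85% and 3.53% against 1.04% (2.23% of all). Other motifs were more frequent in unmarked promoters. TATAAA was in 7.21%, 6.72% and 5.22% of the marked classes and 16.9% of unmarked promoters (12.7% of all), and AGATAA of GATA factors in 5.53%, 5.38% and 5.78% against 12.5% (9.60% of all). TGTGGT of RUNX factors was in 11.7%, 11.1% and 11% against 17.5% (15% of all), and TGANTCA of AP-1 in 4.04%, 4.16% and 4.57% against 8.44% (6.67% of all). These contrasts moved with CpG content: among promoters with at least 10 CpG, TATAAA was in 5.69%, 5.73%, 4.31% and 5.94% and GGGCGG in 71.8%, 74.4%, 73.3% and 70.6%. TGCTGAG, a core bound by CNC and small MAF dimers, was in 5.50%, 6.47%, 5.70% and 8.14% (7.22% of all), TTCNNNGAA of STAT factors in 7.08%, 6.84%, 6.58% and 8.48% (7.83% of all), and CCAAT of NF-Y in 38.8%, 38.5%, 36% and 38.1% (38.2% of all). Among promoters with at least 10 CpG, TGCTGAG was in 5.27%, 6.30%, 5.44% and 6.23%. There TTCNNNGAA was in 6.53%, 6.56%, 5.44% and 4.95%, and CCAAT in 39.1%, 38.4%, 36.7% and 34.7%.

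The Polycomb marks at the same promoters differed by class. H3K27me3 was listed in young HSCs at 5.77% (5.07 to 6.55) of kept promoters, 11.8% (10.7 to 12.9) of young-only, 11.6% (9.90 to 13.5) of aged-only and 20.5% (19.8 to 21.2) of unmarked promoters. In aged HSCs, whose H3K27me3 list is shorter, the shares were 2.88%, 6.27%, 4.90% and 10.8%. Over all promoters the share was 15.8% in young and 8.20% in aged HSCs. Young-marked genes with H3K27me3 in young HSCs were kept in 34.8% of 633 cases (31.1 to 38.5) and those without it in 53.7% of 6692 cases (52.5 to 54.9). The intervals of these last 2 shares do not overlap, but with 1 list per age the difference itself was not tested.

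H2AK119ub1, the mark of PRC1, was listed in young HSCs at 0.813% of kept, 1.62% of young-only, 1.52% of aged-only and 2.53% of unmarked promoters. In aged HSCs it was listed at 12.1% (11.1 to 13.1) of kept, 16.7% (15.5 to 17.9) of young-only, 18.4% (16.3 to 20.6) of aged-only and 14.1% (13.5 to 14.8) of unmarked promoters. Over all promoters the share was 2.00% in young and 14.4% in aged HSCs. The aged H2AK119ub1 list is much longer, with 16796 regions on chromosomes 1 to 19 against 2535 in the young list. What list length contributes to the higher aged shares was not tested. Young-marked genes with H2AK119ub1 in aged HSCs were kept in 44.0% of 1045 cases (41.0 to 47.0), and the others in 53.4% of 6280 (52.2 to 54.7). All 3 marks come from the same sorted populations but from separate pooled lists, and differences in depth between them were not tested.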

How the data were processed

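H3K4me3 chromatin immunoprecipitation sequencing was done by the authors with 2 H3K4me3 libraries and 2 inputs per age. Per the labels, reads were aligned to mm10 with Bowtie2 and peaks called with MACS2 2.2.6. The deposited lists pool the libraries of an age, at a q-value cutoff of 0.05 according to the peak names. The values used are the deposited ratio (fold enrichment of the summit over background, with a pseudocount of 1) and the deposited −log10 of the p-value and q-value. Whole pileups were recovered from fold and −log10 p for every peak, within 0.005. The lists give no library totals, so that the sequencing depth is unknown.

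A peak of chromosomes 1 to 19 was called kept when 1 bp or more of it lay in a peak of the other age. Genes were the 20720 protein-coding genes of GENCODE M21 (basic annotation, 39540 start sites), and a gene was marked by a peak within 1 kb of any start. The representative start of a gene set the promoter window. Python 3.11.15, pandas 2.3.3, numpy 2.4.6 and scipy 1.17.1 were used, and the scripts were tested on simulated data. In lists of up to 15 genes any member could be named, in longer lists up to 4 per class by −log10 q-value, and over all genes 6 per class. Further members of the HSC transcription factor, autophagy, Polycomb and H3K4 methyltransferase lists were named after their values were seen. The members and lists were chosen with earlier results of these data known. Alternatives were a −log10 q-value of at least 4, equal peak numbers, joined peaks, a larger overlap, promoters of 500 bp or 2 kb, 1 start per gene and the comprehensive annotation. Some members of the lists are not reported here.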

Additional observations from a re-analysis of the deposited data

Results flagged for a closer look

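Some H3K4me3 peaks lay outside the chromosomes that were compared. The X chromosome held 92 peaks in the young list and 37 in the aged list, and unplaced scaffolds held 6 peaks in the young list. They are listed because they are signal in data that no comparison above uses, and have no counterpart in a control list here.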

How the results depend on the processing

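The shares depend on the settings. With only peaks of −log10 q-value of at least 4, the ratio of aged to young peaks was 0.567, the kept share 24% of young and 42.6% of aged peaks, 2148 genes were marked at both ages, 39.9% of young-marked genes were kept and the median share over the gene lists was 40.5% (54.2% as deposited). With the same number of peaks at each age, the ratio was 1.00, 35.7% of young and 36.4% of aged peaks were kept, 2246 genes were marked in young and 2217 in aged HSCs only, and 55.9% of young-marked genes were kept. The median share over the gene lists, above the share over all genes as deposited, was then below it (55.0%). With peaks within 1 kb joined, the ratio was 0.666 and the kept shares 38.0% and 57.5%. Asking for an overlap of 50% of the shorter peak gave 27% and 46.0%. The kept share of young-marked genes was 48.5% with promoters of 500 bp, 53.7% with 2 kb and 50.8% with 1 start per gene. The cause of these shifts was not tested. The comprehensive annotation and, for the lists, 1 start per gene were alternatives chosen after seeing the data. Of 69 lists with at least 5 young-marked genes, 38 lay above and 31 below the share over all genes, and 29 changed side under at least 1 of 4 alternatives. KLF and SP factors kept their side under 0 of 4. No paired analysis was possible because only 1 pooled list per age was used.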
